A study of Mus musculus with 12 samples.

Results

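Type I interferon-stimulated genes are the genes that cells switch on in answer to type I interferon. A list of 44 such mouse genes was followed across 12 Illumina BeadChip arrays of CD4+ T cells, with 1 probe per gene, the brightest on average among those with a detection p under 0.01 on at least 2 arrays. Of the 44, 38 had such a probe, among 12248 genes and unnamed probes measured in the same way. No probe carried the symbols Ifi44 and Herc6. The probes of Ifit1, Oas1a, Ifih1 and Xaf1 were not detected on 2 arrays, with highest deposited signals of 2.2, 6.5, 21.5 and 20.7.

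The cells came from spleens of mice 2 months old. The sample labels give the strain as B6.Cg-Tg(TcraTcrb)425Cbn/J, which carries a transgenic T cell receptor, while the design text names C57BL/6 mice. In a time course, 2 arrays each were made of naive CD4+ T cells at 0, 6 and 24 h of exposure to interleukin-7 (IL-7), a survival cytokine of naive T cells. In a second experiment, Th9 cells (helper T cells named for interleukin-9) had been cultured for 3 days, starting from naive cells that had or had not received IL-7 for 48 h beforehand, with 3 arrays of each. Only the 0 h cells of the time course had no IL-7, so IL-7 and time in culture cannot be told apart there. Each experiment sat on its own BeadChip, so cell state and BeadChip cannot be told apart between them. Whether replicates came from different animals or cultures is not given, so the p-values reflect the spread among these arrays alone, part or all of which may be technical.

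Type I interferons bind a receptor of the subunits IFNAR1 and IFNAR2, whose kinases JAK1 and TYK2 pass the signal on inside the cell. STAT2 and IRF9 are subunits of the complex ISGF3, which binds interferon-stimulated response elements in the promoters of its target genes. The products bind viral RNA, block translation, attach the ubiquitin-like protein ISG15 to other proteins or amplify the signal, and many of the genes are also transcribed at a low level in resting cells.

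The core of the response element reads GAAA, any 2 bases, then GAAA, and it was searched on both strands from 250 bases before to 50 bases after each annotated start in the RefSeq promoters of build GRCm38.p6. Promoters were on hand for 32 of the 44 genes, and 13 of these 32 (40.6%) held the core, against 3.99% of the 27025 genes in that table. The core of a gamma-activated site, TTCNNNGAA, stood in 8 of the 32 (25%), against 9.55% of all genes. The promoters of 4 genes are printed, because these fell most after 24 h with IL-7 among the called genes whose promoter held the response element core. Oas3 and Eif2ak2 had the same fitted log2 fold change, -1.33, and the place of Oas3 rests on a level at 24 h that was not detected. They are those of Ifit3 (chr19:34583279-34583578, plus strand), Isg15 (chr4:156200769-156201068, minus strand), Ifit1bl1 (chr19:34601919-34602218, minus strand) and Oas3 (chr5:120777610-120777909, minus strand). Each is written 5′ to 3′ along the gene's strand, with the core in capitals in either orientation.
Ifit3: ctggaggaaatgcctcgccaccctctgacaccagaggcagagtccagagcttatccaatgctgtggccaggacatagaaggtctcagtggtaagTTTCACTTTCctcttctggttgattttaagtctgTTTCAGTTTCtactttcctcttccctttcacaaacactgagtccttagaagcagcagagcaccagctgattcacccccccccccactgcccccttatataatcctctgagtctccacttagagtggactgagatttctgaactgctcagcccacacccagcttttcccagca
Isg15: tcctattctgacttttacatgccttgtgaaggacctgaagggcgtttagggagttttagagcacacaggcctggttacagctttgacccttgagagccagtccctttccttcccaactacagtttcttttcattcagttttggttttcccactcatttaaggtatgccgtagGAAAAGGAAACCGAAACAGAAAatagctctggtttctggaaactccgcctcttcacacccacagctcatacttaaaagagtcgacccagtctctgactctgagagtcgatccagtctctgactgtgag
Ifit1bl1: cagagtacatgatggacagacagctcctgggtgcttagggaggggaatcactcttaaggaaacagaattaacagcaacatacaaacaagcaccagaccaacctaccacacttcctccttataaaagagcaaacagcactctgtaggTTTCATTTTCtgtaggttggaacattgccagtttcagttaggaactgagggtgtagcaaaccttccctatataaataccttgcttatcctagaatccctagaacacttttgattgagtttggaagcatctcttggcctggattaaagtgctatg
Oas3: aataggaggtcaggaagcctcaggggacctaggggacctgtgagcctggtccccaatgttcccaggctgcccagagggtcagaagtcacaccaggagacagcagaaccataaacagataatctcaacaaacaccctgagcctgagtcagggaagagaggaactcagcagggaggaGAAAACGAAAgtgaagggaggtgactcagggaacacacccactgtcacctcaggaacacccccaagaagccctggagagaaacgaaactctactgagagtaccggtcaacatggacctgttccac
Ifit3 held the core at 2 places, beginning 156 and 122 bases before the start, and Isg15 held 3 overlapping copies beginning 78, 72 and 66 bases before it. In Ifit1bl1, for which 2 promoters were listed, and in Oas3 a single copy began 104 and 75 bases before the start. A match describes these letters only and is not a measured binding site.

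Levels below are log2 values of the background-corrected, quantile-normalised signal, and each log2 fold change carries the standard error of the fit. The arrays had mean signals of 157.6 to 245.2 in the time course, with 32.1% to 34.5% of 45281 probes detected, and of 116.1 to 221.6 in the Th9 experiment, with 28.3% to 32.1% detected. All 8 measured T cell markers were detected on all 12 arrays, while the probe of Cd5 was detected on none. Il9 had a signal of 238.3 to 1100.8 on the Th9 arrays and at most 2.9 in naive cells. Of the other 4 listed Th9 markers, Irf4 had 1227.8 to 2229.9 and Batf 636.1 to 1476 on the Th9 arrays. In naive cells these had at most 291.6 and 309.3. Il4ra, at -5 to 23.9 on the Th9 arrays, was below its 47.1 and 35.1 at 0 h, and Spi1 had -11.6 to 1.7. The array of 6 h replicate 1 stood apart. The summed signal of 7 B cell markers was 10411 there and 135.3 to 628.1 on the other 5 time-course arrays. All 7 were highest there. Most of that sum came from Cd74 (4418.3), H2-Ab1 (2675.4), H2-Eb1 (1570.9) and H2-Aa (1404.9). These antigen-presentation genes are not particular to B cells, since myeloid and dendritic cells express them too. Cd79b stood at 292.1, Cd22 at 25.7 and Blnk at 23.7, while Ms4a1, Pax5 and Cr2 were detected on no array. For 13 myeloid and dendritic cell markers the summed signal was 5707.4 against 1152.6 to 1984.7, with 11 of 13 highest there. For 5 markers of plasmacytoid dendritic cells, which make type I interferon, it was 1609.3 against 1060.3 to 1858.2, with 2 of 5 highest there. After normalisation, 4 of these 5 were highest on that array, as were 7 of the 7 B cell and 12 of the 13 myeloid markers. Markers counted here needed detection on only 1 of the 12 arrays. Blnk, Cd22, C1qa, Cd14, Adgre1, Ly86 and Klk1 were detected on no more than 1, and were brightest on this array. Their place among the highest there was therefore favoured by the filter. Itgam and Itgax, also on the myeloid list, were detected on no array and left out. In RNA from a bulk sample, fewer cells of a type and less RNA per cell cannot be told apart. The 6 h values of the genes below include this array, and those that move most without it are given again with either 6 h array left out. Sums were also higher at 0 h than at 24 h for the B cell markers (523.7 to 628.1 against 135.3 to 295.6) and the myeloid markers (1688.3 to 1984.7 against 1152.6 to 1486.5). For 6 natural killer cell markers they were 2589.1 to 4106.1 at 0 h, 1521.8 to 1904.7 at 6 h and 1945.1 to 2851.5 at 24 h. These sums are of deposited signal, not normalised between arrays, and the T cell sums fell as well. For the 8 T cell markers they were 32111.8 to 40470.4 at 0 h, 20286.1 to 23929.9 at 6 h and 23652.5 to 27598 at 24 h. The part of B, myeloid, dendritic and natural killer cells in the changes described below was not tested.

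The first question was how the interferon-stimulated genes stood after 24 h with IL-7 against 0 h. They fell. Of 37 genes tested, 23 fell at an adjusted p under 0.05 (limma, Benjamini-Hochberg over 11040 features) and 0 rose, where 6.25% of all features were called, 2.94% lower and 3.31% higher. The largest called fall was that of Ifit3, 15.7-fold. The median log2 fold change over the 37 was -1.18 (-1.14 with genes undetected at 24 h set to their bounds), against 0 over all features. For 34 genes both 24 h arrays lay below both 0 h arrays, an order seen for 31.9% of features, and for 1 gene, Parp9, both lay above (31.2% of features). The fitted change was below 0 for 34 genes (50.2% of features), and an unadjusted p under 0.05 was found for 34 (25.3%).

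The 37 tested genes comprised 30 detected on all 6 time-course arrays and 6 not detected at 24 h (Isg20, Oas3, Rsad2, Rtp4, Mx1 and Mx2). Oas3 was detected at 0 h alone, and Isg20, Rsad2, Rtp4, Mx1 and Mx2 on both 0 h arrays and 1 array at 6 h. All 6 thus met the filter of 2 arrays only through 0 h, the time at which they were high. Isg20, Oas3, Rtp4 and Mx2 are among the genes called lower at 24 h, and the filter favoured that direction for them. Without 6 h replicate 1, 32 genes were called lower at 24 h, and likewise 32 without 6 h replicate 2, because the 3 times share 1 estimate of the spread. Without either 0 h array or either 24 h array, 0 were called, with the lone array assumed to vary like the other groups. The log2 fold change of Ifit3 ranged from -4 to -3.91 over these fits.

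**Figure D1:**
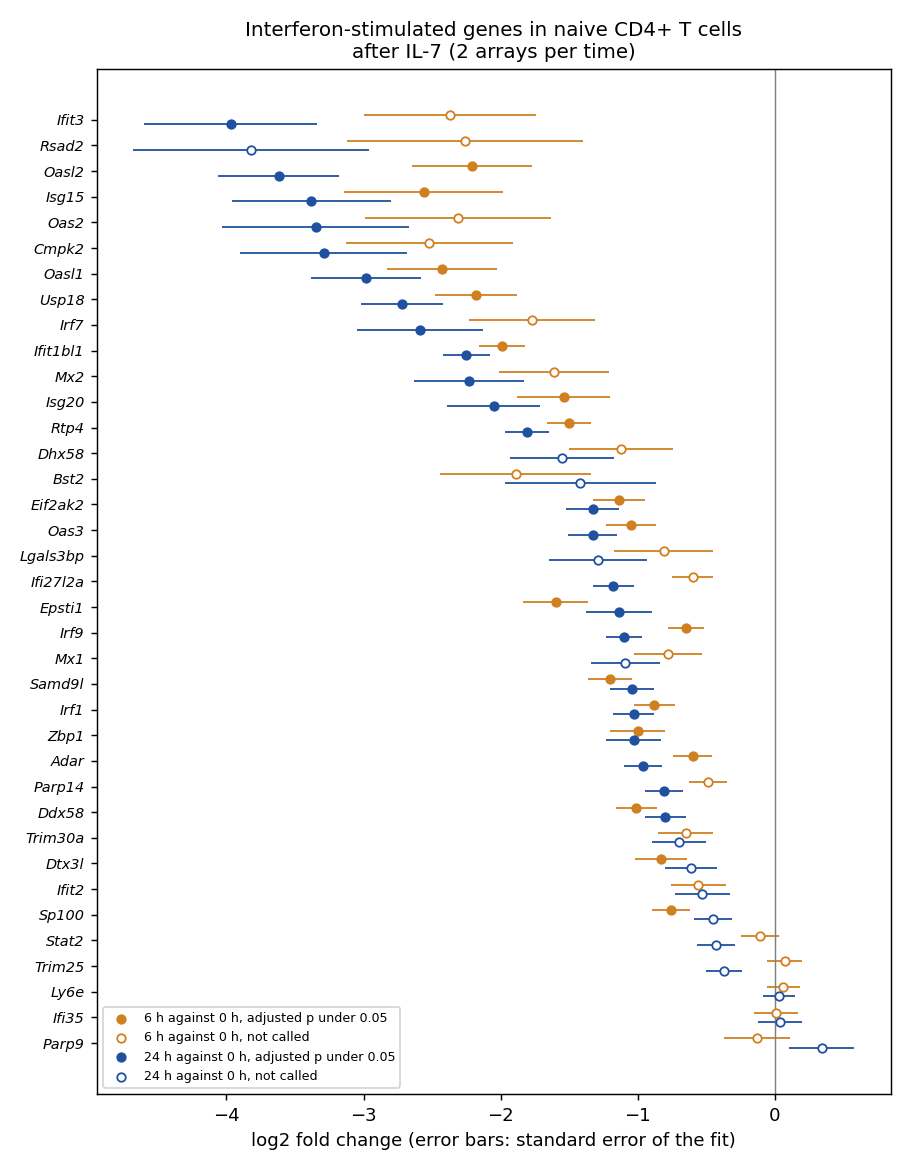
Log2 fold change of the 37 tested genes after 6 h (orange) and 24 h (blue) with IL-7 against 0 h on the horizontal axis, with standard errors of the fit and filled points for adjusted p under 0.05. Both comparisons share the 0 h arrays. At 24 h, 34 genes lie below 0, from Ifit3 at -3.97 upward, and Ly6e, Ifi35 and Parp9 lie at 0.03 to 0.34.

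Among the IFIT genes, whose products bind viral RNA and hold back its translation, 2 of 3 tested fell at 24 h. Ifit3 lay at 10.25 and 10.17 at 0 h, at 8.94 and 6.76 at 6 h, and at 6.25 and 6.24 at 24 h. Its log2 fold change at 24 h was -3.97 ± 0.63 (adjusted p = 0.024, limma), and at 6 h -2.37 ± 0.63, which did not pass (adjusted p = 0.066, limma). The 24 h arrays were the lowest and nearly equal, whereas the 6 h arrays lay far apart. Ifit1bl1 lay at 9.08 and 9.13 at 0 h, at 7.24 and 6.99 at 6 h, and at 6.66 and 7.05 at 24 h. It had fallen by both times, with log2 fold changes of -1.99 ± 0.17 at 6 h (adjusted p = 0.0064, limma) and -2.25 ± 0.17 at 24 h (adjusted p = 0.0052, limma). Ifit2 was not called, at -0.56 ± 0.2 after 6 h and -0.53 ± 0.2 after 24 h.

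The OAS genes encode enzymes that make 2′-5′ oligoadenylates on sensing viral RNA, or relatives of these enzymes. Of 4 tested, 3 fell at 6 h and 4 at 24 h. Oasl2 lay at 9.5 and 9.46 at 0 h, at 8.03 and 6.51 at 6 h, and at 5.87 and 5.84 at 24 h, each time lower than the one before. It fell 4.62-fold by 6 h (log2 fold change -2.21 ± 0.44, adjusted p = 0.035, limma) and 12.3-fold by 24 h (-3.62 ± 0.44, adjusted p = 0.014, limma). For Oas2 the values were 9.24 and 9.32, then 8.14 and 5.79, then 5.79 and 6.07, so that 6 h replicate 2 lay as low as the 24 h arrays. Its 24 h change was -3.35 ± 0.68 (adjusted p = 0.044, limma). For Oasl1 they were 8.19 and 8.31, then 6.5 and 5.14, then 5.2 and 5.35, with changes of -2.43 ± 0.4 at 6 h and -2.98 ± 0.4 at 24 h, both called. Oas3 was dim, at 5.52 and 5.65 at 0 h, and fell at least 1.36-fold by 24 h.

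Among sensors of foreign RNA and of nucleic acid, listed together with the RNA-editing gene Adar, 4 of 5 tested genes fell at each time. Eif2ak2 encodes the RNA-activated kinase PKR, which blocks translation, and lay at 8.77 and 8.72 at 0 h, at 7.88 and 7.34 at 6 h, and at 7.45 and 7.4 at 24 h. Its arrays at 6 and 24 h overlapped, below both 0 h arrays, and it fell 2.2-fold by 6 h and 2.51-fold by 24 h (adjusted p = 0.019, limma). Ddx58, the gene of the RNA sensor RIG-I, changed by -1.01 ± 0.15 and -0.8 ± 0.15. Zbp1, a sensor of nucleic acid in the Z conformation, changed by -1 ± 0.2 and -1.03 ± 0.2. Adar encodes an enzyme that edits adenosine in RNA, and by the chosen probe it fell by 0.6 and then 0.96 on the log2 scale. Dhx58, which encodes the RIG-I-like protein LGP2, did not pass, at -1.12 ± 0.38 and -1.55 ± 0.38. Of these genes it had the widest gap between the 6 h arrays, 7.03 and 5.82.

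Of 4 transcription factors of the interferon response, 2 fell at 6 h and 3 at 24 h, with the largest change in Irf7. This factor amplifies interferon production, and its gene lay at 8.3 and 8.17 at 0 h, at 7.25 and 5.69 at 6 h, and at 5.72 and 5.58 at 24 h. It fell 6-fold by 24 h (log2 fold change -2.59 ± 0.46, adjusted p = 0.032, limma). Irf9, the DNA-binding subunit of ISGF3, fell by 0.65 ± 0.13 at 6 h and by 1.1 ± 0.13 at 24 h on the log2 scale. Irf1 was among the brightest of the genes, at 12.79 and 12.71 at 0 h, and fell by 0.88 ± 0.15 and 1.03 ± 0.15. Stat2 was not called, at -0.11 ± 0.14 and -0.43 ± 0.14.

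Isg15, the ubiquitin-like modifier, and Usp18, the protease that removes it and also restrains the interferon receptor, both fell at each time. They belong to a group for ubiquitin-like and ADP-ribose transfer in which 3 of 7 tested genes fell at 6 h and 3 at 24 h. Isg15 lay at 9.44 and 9.56 at 0 h, at 7.96 and 5.93 at 6 h, and at 6.09 and 6.16 at 24 h. It fell 5.89-fold by 6 h (log2 fold change -2.56 ± 0.58, adjusted p = 0.047, limma), the largest called fall at that time, and 10.4-fold by 24 h (-3.38 ± 0.58, adjusted p = 0.03, limma). Usp18 lay at 10.41 and 10.2, then at 8.57 and 7.68, then at 7.74 and 7.43, with changes of -2.18 ± 0.3 and -2.72 ± 0.3, both called. Parp14, an ADP-ribose transferase, fell by 0.81 ± 0.14 at 24 h, and Dtx3l, a ubiquitin ligase, fell by 0.83 ± 0.19 at 6 h and was not called at 24 h (-0.61 ± 0.19). The remaining members of this group, Trim25, Trim30a and Parp9, did not pass at either time.

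Of 8 other antiviral effectors, 2 fell at 6 h and 4 at 24 h. Rsad2, which encodes viperin, lay at 8.62 and 8.43 at 0 h, at 7.77 and 4.76 at 6 h, and at 4.55 and 4.87 at 24 h, where it was not detected. It was at least 10.4-fold lower at 24 h by its measured values, and the fit did not call it (log2 fold change -3.82 ± 0.86, adjusted p = 0.055, limma). Without 6 h replicate 1 its log2 fold change was -3.86 ± 0.15, and it was called. Cmpk2, a mitochondrial nucleotide kinase whose gene lies beside Rsad2, lay at 8.35 and 8.17, then at 6.78 and 4.69, then at 5.12 and 4.83. It fell 9.75-fold by 24 h (-3.29 ± 0.61, adjusted p = 0.035, limma), and at 6 h it was just outside the threshold (-2.52 ± 0.61, adjusted p = 0.053, limma).

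Mx2, a gene of the dynamin-like antiviral proteins, lay at 6.88 and 6.65 at 0 h, at 5.82 and 4.49 at 6 h, and at 4.57 and 4.5 at 24 h. It was at least 3.08-fold lower at 24 h (log2 fold change of the fit -2.23 ± 0.4, adjusted p = 0.032, limma). Isg20, an exonuclease of RNA, lay at 7.08 and 6.97, then at 6.04 and 4.93, then at 4.89 and 5.07. It was at least 3.7-fold lower at 24 h and was called at both times. Samd9l, an interferon-induced growth inhibitor, lay at 12.02 and 12.11, then at 11.06 and 10.68, then at 11.01 and 11.03, and so was no lower at 24 h than at 6 h. It fell by 1.2 ± 0.16 at 6 h and by 1.04 ± 0.16 at 24 h on the log2 scale. Mx1, and the surface proteins Bst2 (tetherin) and Ly6e, were not called at either time. Bst2 differed most among these between the 6 h arrays, at 7.71 and 5.83, against 8.54 and 8.77 at 0 h and 7.24 and 7.23 at 24 h.

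Of the other interferon-induced genes, 3 of 6 tested fell at each time. Epsti1 lay at 9.01 and 9.02 at 0 h, at 7.78 and 7.04 at 6 h, and at 7.91 and 7.83 at 24 h. It fell by 1.6 ± 0.24 at 6 h and by 1.14 ± 0.24 at 24 h on the log2 scale, with the 24 h arrays above both 6 h arrays. Rtp4, a gene for a receptor-transporting protein, lay at 6.29 and 6.37, then at 5 and 4.65, then at 4.49 and 4.54, and was at least 2.28-fold lower at 24 h. Ifi27l2a, a small mitochondrial protein gene, lay at 12.49 and 12.59 at 0 h, at 12.07 and 11.81 at 6 h, and at 11.49 and 11.24 at 24 h. It was called at 24 h (-1.18 ± 0.15, adjusted p = 0.016, limma) and not at 6 h (-0.6 ± 0.15). Sp100, a nuclear body protein gene, fell by 0.76 ± 0.14 at 6 h and was not called at 24 h (-0.45 ± 0.14).

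The genes above 0 at 24 h were 3, and none was called. Parp9, the partner of Dtx3l, lay at 5.73 and 6.04 at 0 h and at 6.35 and 6.09 at 24 h (0.34 ± 0.24). A second Parp9 probe went the other way, at -1.11, so the direction of this gene was not settled. Ifi35 changed by 0.04 ± 0.16. Ly6e was bright and level, at 12.61 and 12.55 at 0 h and at 12.55 and 12.67 at 24 h. Over all genes with further detected probes, 27 of 30 such probes had the sign of the chosen probe at 24 h and 25 of 30 at 6 h. Oasl2, which fell 12.3-fold by the chosen probe, fell less by its others, at -1 and -0.91 on the log2 scale. The further probes of Adar were mixed, at -0.27, -0.65, 0.28 and 0.03 at 6 h and, in the same order, -0.56, -1.14, 0.11 and -0.14 at 24 h. Dtx3l, called lower at 6 h by the chosen probe, stood at 0 there by its second probe. The specificity of single probes among close relatives such as the OAS, IFIT and Mx genes was not tested.

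The second question was what had happened by 6 h. Of the 37 genes, 18 fell against 0 h and 0 rose, where 9.51% of features were called, 5.31% lower and 4.2% higher. The median log2 fold change was -1.05, or -1.01 with Oas3 at its bound, against -0.03 over all features. Both 6 h arrays lay below both 0 h arrays for 32 genes (32% of features) and above them for 0 (25.8%). The fitted change was below 0 for 34 genes (53.3% of features), and an unadjusted p under 0.05 was found for 31 (29.3%). The 6 h and 24 h comparisons share the 0 h arrays, and 16 genes were called in both. Dtx3l and Sp100 were called at 6 h alone, and 7 genes at 24 h alone, which were Ifit3, Oas2, Cmpk2, Irf7, Mx2, Ifi27l2a and Parp14.

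These 6 h calls depended on the arrays. Leaving out 6 h replicate 1 gave 31 called genes, and leaving out 6 h replicate 2 gave 24, all lower in both cases. With either 0 h array left out 0 were called, and with either 24 h array left out 2. Trim25, a ubiquitin ligase for RIG-I, lay slightly above 0 at 6 h (0.07 ± 0.13), at 9.97 and 9.96 at 0 h and 10.15 and 9.92 at 6 h. The size of the 6 h change depended on which 6 h array was used, and the values that follow are log2 fold changes. Without 6 h replicate 1, Ifit3 stood at -3.46 ± 0.15, and without 6 h replicate 2 at -1.28 ± 0.15. Isg15 stood at -3.59 ± 0.15 and -1.55 ± 0.15, Oasl2 at -2.98 ± 0.15 and -1.46 ± 0.15, and Oasl1 at -3.14 ± 0.16 and -1.75 ± 0.16 in the same order. Each of these was called in both fits, with a smaller fall when replicate 1 alone stood for 6 h. Oas2 stood at -3.51 ± 0.17 and -1.14 ± 0.17, Cmpk2 at -3.61 ± 0.18 and -1.48 ± 0.18, and Rsad2 at -3.8 ± 0.19 and -0.76 ± 0.19. Bst2 stood at -2.85 ± 0.16 and -0.95 ± 0.16, Irf7 at -2.57 ± 0.16 and -0.99 ± 0.16, Mx2 at -2.31 ± 0.16 and -0.95 ± 0.16, and Isg20 at -2.13 ± 0.16 and -0.99 ± 0.16. Cmpk2, Rsad2, Mx2 and Isg20 were detected at 6 h on replicate 1 alone. Their values without that array depend on background and are no measured size. Ifit1bl1 differed less between these fits, at -2.12 ± 0.19 and -1.87 ± 0.19.

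The 6 h replicates lay apart in the interferon-stimulated genes. At 6 h, 33 of 37 genes were higher on replicate 1 than on replicate 2, with a median difference of 0.46 on the log2 scale. The range was from -0.61 for Parp9 to 3.01 for Rsad2, which was not detected on replicate 2. Over all features the median difference was -0.07, and 40.6% were higher on replicate 1. At 0 h 17 of the 37 were higher on replicate 1, and at 24 h 18, with medians of -0.01 at both times. Replicate 1 is the array with the high signals of the B cell and myeloid marker lists given above. The part of such cells in the result was not tested. Among 38 measured genes, 37 were detected on this array, as on each 0 h array, against 30 on 6 h replicate 2 and 31 and 30 at 24 h.

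**Figure D2:**
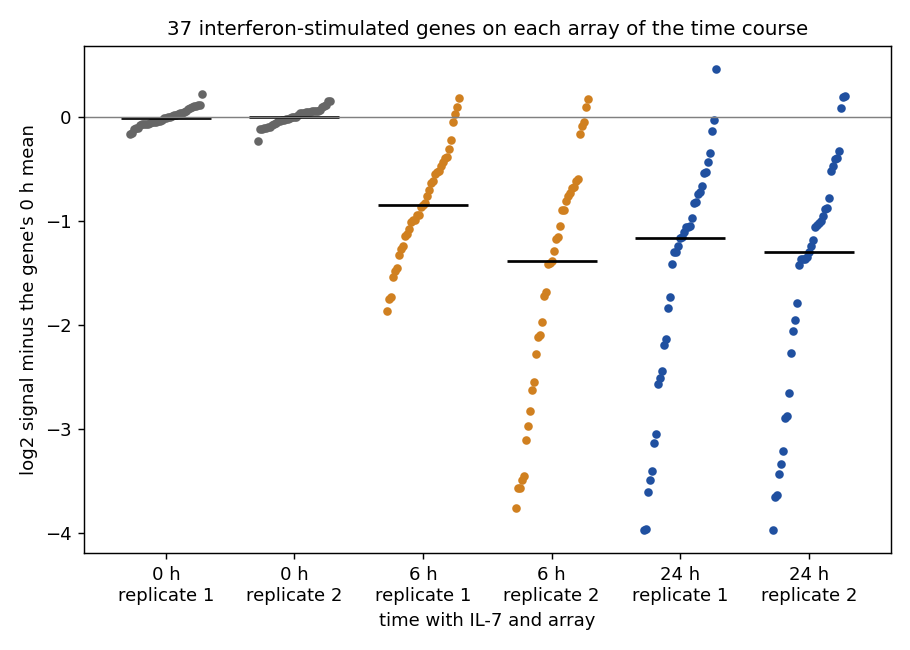
Log2 signal of 37 interferon-stimulated genes minus each gene's 0 h mean, on the 6 arrays of the time course. Points are genes sorted by value within an array and black lines are medians. The array of 6 h replicate 1 lies between the 0 h arrays and the other 3 arrays, with 33 of 37 genes higher than on 6 h replicate 2.

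Between 24 h and 6 h, 0 of the 37 genes were called, where 0.444% of features were (0.308% lower, 0.136% higher), and 6 genes had an unadjusted p under 0.05, against 17.1% of features. The median log2 fold change was -0.31 (-0.26 with undetected genes at their bounds), against 0.04 over all features. Ifit3 stood at -1.61 ± 0.63 and Oasl2 at -1.41 ± 0.44, while Rsad2, not detected at 24 h, was at least 2.19-fold lower by its measured values, and none of these passed. Both 24 h arrays lay below both 6 h arrays for 10 genes (20.4% of features) and above them for 4 (27.1%), which were Ddx58, Sp100, Epsti1 and Parp9. Without 6 h replicate 2, 17 genes were called lower at 24 h and Parp9 higher. Without 6 h replicate 1, 2 genes were called, both higher at 24 h, Bst2 at 1.42 ± 0.16 and Epsti1 at 0.84 ± 0.15. For genes such as Ifit3 the size of the further fall after 6 h thus rested on which 6 h array was used, at -2.7 ± 0.15 with replicate 1 alone and -0.52 ± 0.15 with replicate 2 alone.

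Genes of the interferon signal itself were called about as often as all features, of which 9.51% were called at 6 h and 6.25% at 24 h. Of 10 tested genes for the receptor and its signal, 0 were called at 6 h. At 24 h the only 1 called was Socs1, an inhibitor of cytokine receptor kinases, which rose 1.95-fold (log2 fold change 0.96 ± 0.18, adjusted p = 0.038, limma). Ifnar2 lay at 6.82 and 6.83 at 0 h, at 6.59 and 6.46 at 6 h, and at 6.84 and 6.61 at 24 h, with a 24 h change of -0.1 ± 0.14. Ifnar1 and the interferon gene Ifnb1 were not detected on any array. Of 10 tested genes that act in inducing interferon, 1 was called at each time, Myd88, an adaptor of Toll-like receptors, at -0.57 ± 0.12 and -0.67 ± 0.12. Ifng, the type II interferon, lay at 5.12 and 4.81 at 0 h, at 5.82 and 4.21 at 6 h, and at 4.33 and 4.28 at 24 h, and was not called.

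The third question was whether Th9 cells grown after IL-7 differed from Th9 cells grown without it. Of the 38 measured genes, 13 were detected on no array of this experiment and 5 on 1 or 2, which left 20 to test. The 13 were Isg20, Ifit3, Ifit1bl1, Oas2, Oas3, Oasl1, Oasl2, Rsad2, Cmpk2, Irf7, Rtp4, Mx1 and Mx2. None of the 20 was called (limma, adjusted p under 0.05), where 0.344% of 9594 features were. An unadjusted p under 0.05 was found for 5 of the 20, against 9.87% of features. The median log2 fold change was 0.04, against -0.01 over all features, and 9 of 20 genes were below 0 (52.3% of features).

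The 5 genes with the smallest p pointed in both directions, and their values are given as ones that did not pass. Ifi27l2a lay at 10.42, 10.37 and 9.88 without IL-7 and at 9.44, 9.7 and 9.01 after IL-7 (-0.84 ± 0.22, adjusted p = 0.21, limma). Samd9l lay at 6.2, 5.84 and 6.18 and at 4.89, 5.74 and 5.13 (-0.82 ± 0.23, adjusted p = 0.23, limma). In both, every array after IL-7 was below every array without it. The secreted glycoprotein gene Lgals3bp lay at 6.55, 6.63 and 6.97 and at 7.2, 7.32 and 7.41 (0.59 ± 0.16, adjusted p = 0.22, limma). Ly6e lay at 8.89, 8.97 and 8.74 and at 9.39, 9.36 and 9.25 (0.47 ± 0.14, adjusted p = 0.27, limma). Irf1 lay at 8.61, 8.47 and 8.28 and at 8.92, 9.08 and 8.72 (0.45 ± 0.16, adjusted p = 0.38, limma). In these, every array after IL-7 was above every array without it. The groups did not overlap for 3 genes that were lower after IL-7 (8.24% of features) and for 3 that were higher (6.35%). Isg15 lay at 5, 4.61 and 5.72 without IL-7 and at 5.47, 5.01 and 4.86 after it, with a difference of 0 ± 0.28.

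**Figure D3:**
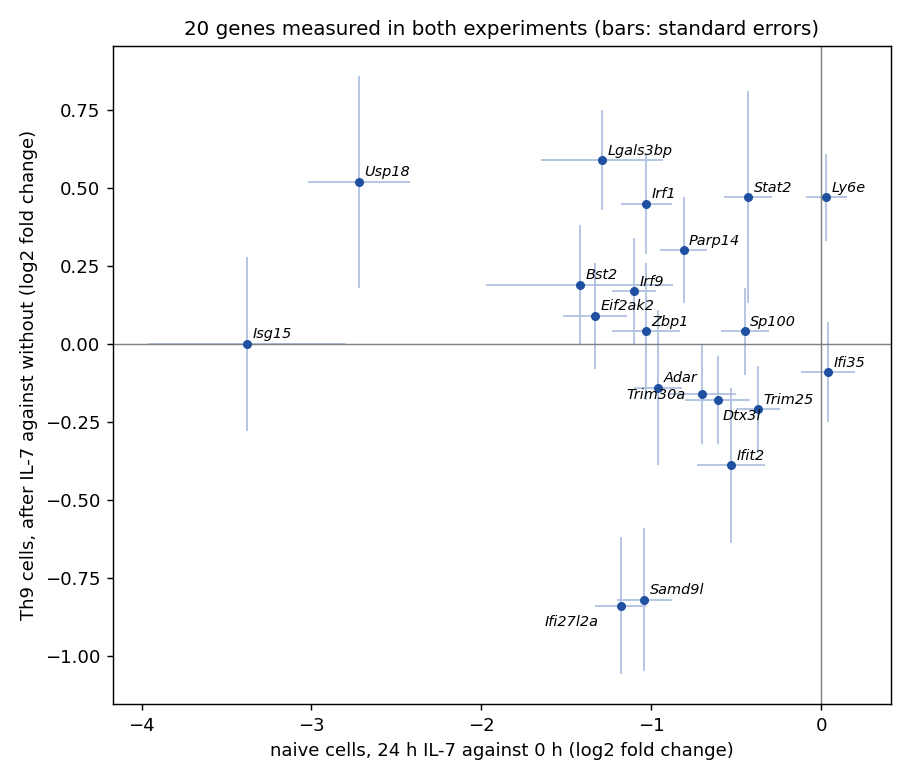
Log2 fold change in naive cells at 24 h against 0 h (horizontal axis) and in Th9 cells after IL-7 against without (vertical axis) for the 20 genes tested in both, with standard errors. Isg15 lies at -3.38 and 0, Usp18 at -2.72 and 0.52, and Ifi27l2a and Samd9l are below 0 on both axes.

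The difference between the effects, 24 h against 0 h in naive cells minus earlier IL-7 against none in Th9 cells, was tested over all 12 arrays normalised together. The 2 effects are unlike in timing as well as in cells. In naive cells it is 24 h of IL-7 and culture, read at once. In Th9 cells it is what remained of 48 h of IL-7 after 3 days of Th9 culture. Of 38 genes, 18 had a lower value in naive cells and 0 a higher one, where 3.75% of 12248 features were called, 1.69% lower and 2.06% higher. The median difference was -1.18, against 0.01 over all features. Of the 18, 11 were detected on no Th9 array and so had no measured level from which to fall there, and for these the test restates the fall in naive cells. The other 7 were tested in both experiments. They were Isg15 at -3.41 ± 0.71 (adjusted p = 0.027, limma), Usp18 at -3.33 ± 0.54, Lgals3bp at -1.93 ± 0.4, Eif2ak2 at -1.44 ± 0.26, Irf1 at -1.41 ± 0.22, Irf9 at -1.32 ± 0.23 and Parp14 at -1.15 ± 0.23. Isg15 was detected on only 2 Th9 arrays without IL-7 and 1 after it. Its mean without IL-7, 5.29, was below the 5.88 of naive cells at 24 h, so it had little room to fall. Usp18, at 6.99 against 7.3, was also already below its 24 h level in naive cells. So were Irf1 (8.75 against 11.68), Irf9 (6.92 against 8.87), Parp14 (6.87 against 9.25) and Lgals3bp (7.07 against 8). Eif2ak2, at 7.34 against 7.14, was not. Without a 0 h array 4 (replicate 1) or 7 (replicate 2) genes were called, without a 24 h array 5 (replicate 1) or 4 (replicate 2), and without any other single array 14 to 20.

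Levels in Th9 cells were below those of naive cells at 0 h for all but 1 of the measured genes. Of 38 genes, 37 were lower in Th9 cells and 0 higher, where 66.8% of features were called and 35.4% lower. Both groups did not overlap, with Th9 cells lower, for 37 genes (42.8% of features), the fitted change was below 0 for 37 (52.8%) and an unadjusted p under 0.05 was found for 37 (69.7%). The median log2 difference was -2.61, against -0.08 over all features. Of the 38, 13 were detected on no array of the Th9 experiment and had been measured only through naive cells, which fixed their direction. Of the other 25, 24 were lower and 0 higher, with a median of -2.47. Cell state and BeadChip cannot be told apart here. Samd9l was 49-fold lower, the largest difference among genes detected in both groups, from a mean of 12.02 ± 0.07 (SD, n = 2) in naive cells at 0 h to 6.4 ± 0.22 (SD, n = 3) in Th9 cells. Ifit3 was at least 28.8-fold lower and Oasl2 at least 16.8-fold lower, both undetected in Th9 cells. Irf1 was 15.1-fold lower, at 12.67 ± 0.05 (SD, n = 2) against 8.75 ± 0.15 (SD, n = 3). Tor3a was the exception, at 0.05 ± 0.23, and was detected on 2 of the 12 arrays.

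The order of the 5 groups can be read from the median level of the 38 genes on each array. It was 8.8 and 8.83 at 0 h, 7.64 and 6.72 at 6 h, and 6.83 and 6.83 at 24 h. In Th9 cells it was 5.81, 5.55 and 5.16 without IL-7 and 5.21, 5.2 and 5.19 after IL-7, while the median over all features lay between 6.79 and 6.83 on every array. The 0 h arrays stood above all others, the 6 h and 24 h arrays overlapped, and the ranges of both Th9 groups overlapped below them.

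**Figure D4:**
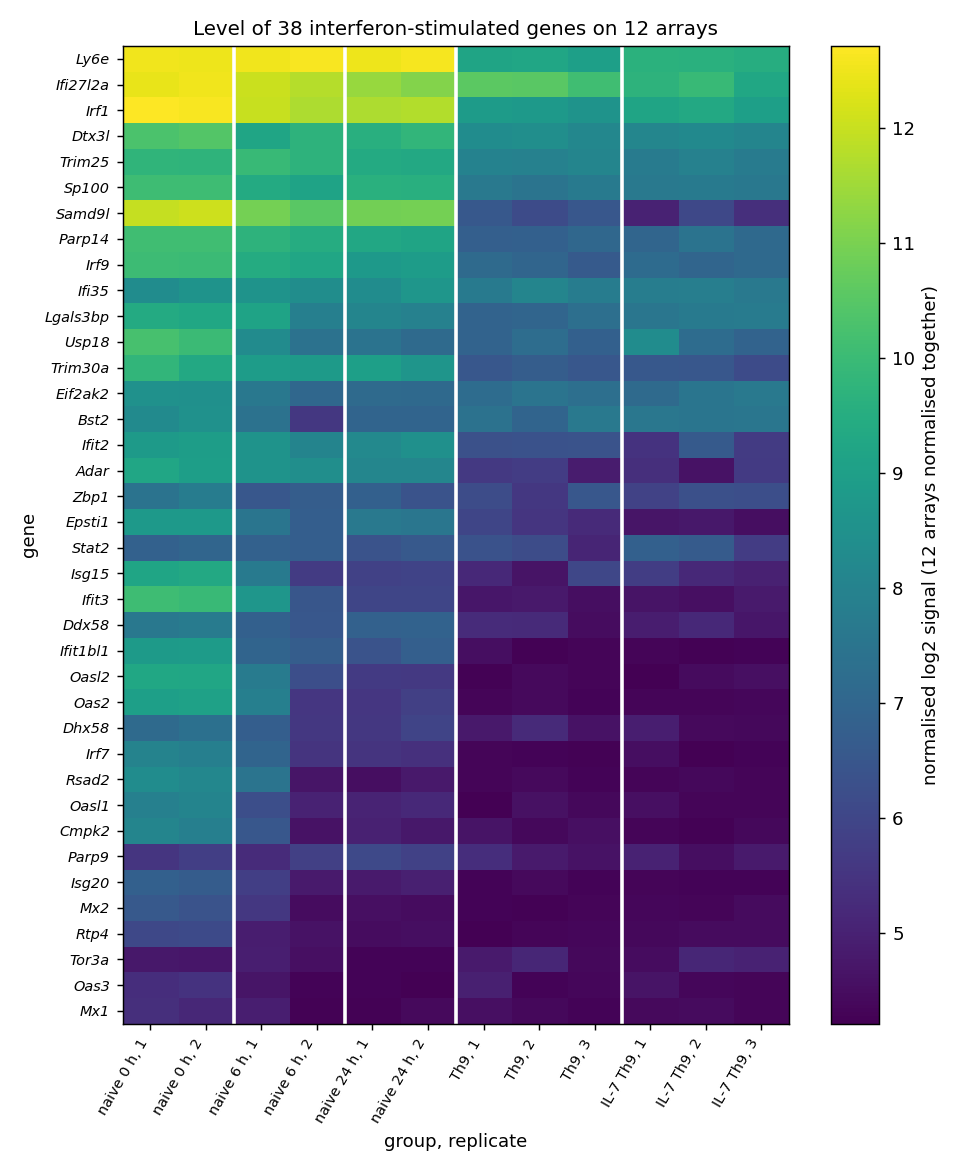
Level of the 38 measured genes (rows, sorted by mean) on 12 arrays (columns), as normalised log2 signal with all arrays normalised together. White lines separate the 5 groups. Of the 38 rows, 37 are lower in Th9 cells without IL-7 than in naive cells at 0 h.

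Genes with and without the response element core in their promoter both fell at 24 h. Of 10 tested genes with the core, 6 were called lower, with a median log2 fold change of -1.38 and a range from -3.97 (Ifit3) to -0.43 (Stat2). Of 16 tested genes with a promoter on hand but no core, 10 were called lower, with a median of -1.07 and a range from -3.62 (Oasl2) to 0.04 (Ifi35). The remaining 11 tested genes had no promoter on hand. Rsad2, Bst2, Trim30a and Stat2 held the core and were not called. Oasl2, Cmpk2 and Oasl1 held none within this window and had log2 fold changes of -3.62, -3.29 and -2.98.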

How the data were processed

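Biotin-labelled RNA made from total RNA was hybridised to an Illumina mouse BeadChip, as the labels say. Each probe's deposited intensity is a linear signal after background subtraction, not normalised between arrays, made with GenomeStudio per the submitters' processing notes (no version), and the authors deposited a detection p-value beside it. Symbols came from the platform's annotation (34885 of 45281 probes with 1 symbol, 18 with several, 10378 with none). A second, scaled table was not used, because its probe names were not borne out (Spearman correlation with same-name probes -0.0083 to 0.0019).

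Signals were processed with limma 3.58.1 in R 4.3.3 (normexp from detection p-values, offset 16, quantile, log2), within each experiment, or over 12 arrays for comparisons across experiments. Features needed detection p under 0.01 on 2 of 12 arrays and then on 2 of 6 time-course or 3 of 6 Th9 arrays. Linear models (lmFit, eBayes) gave 2-sided p-values, adjusted by Benjamini and Hochberg over all features tested and called under 0.05. Undetected groups gave bounds, with each array's undetected value raised to its lowest detected value. The difference of effects between experiments has no such bound. Genes and lists were chosen with earlier results of these data known. Values on every array are given for up to 10 called genes with the largest change at 24 h, up to 5 more per other comparison (the smallest p where none was called), and genes going against most. Alternatives were other normalisations, filters, probe summaries, array weights, a replicate block and leaving out each array. Precision is limited by how few arrays there are. On simulated data, with the spread of these arrays, 49% of changes of size 1 on the log2 scale and 85% of size 2 were recovered at 24 h (10818 features), and 58% and 89% in the Th9 comparison (9594 features).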

Additional observations from a re-analysis of the deposited data

Results flagged for a closer look

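The 24 h effect in naive cells includes time in culture, whereas that in Th9 cells is of 48 h of IL-7 before 3 days of Th9 culture. The difference between these 2 effects was called for 18 interferon-stimulated genes (limma, all 12 arrays), as log2 values, naive minus Th9. For 11 of these, detected on no Th9 array, the Th9 effect could not be measured and the value restates the fall in naive cells. Their fitted values were -4.02 for Ifit3, -3.69 for Oasl2, -3.35 for Oas2, -2.91 for Cmpk2, -2.86 for Oasl1, -2.56 for Irf7 and -2.22 for Ifit1bl1. Those of Rsad2 (-3.61), Mx2 (-2.06), Isg20 (-1.83) and Rtp4 (-1.72), which were not detected at 24 h either, depend on background and are no measured size. Among genes tested in both experiments they were -3.41 for Isg15, -3.33 for Usp18, -1.93 for Lgals3bp, -1.44 for Eif2ak2, -1.41 for Irf1, -1.32 for Irf9 and -1.15 for Parp14. Isg15, detected on 2 Th9 arrays without IL-7 and 1 after it, had little room to fall in Th9 cells. Without IL-7, the Th9 means of Usp18, Lgals3bp, Irf1, Irf9 and Parp14 were also below their 24 h means in naive cells. That of Eif2ak2 was not. Lgals3bp was called for the difference and in neither experiment alone, with values of -1.29 in naive cells and 0.59 in Th9 cells.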

How the results depend on the processing

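Of 198 recomputed counts and medians, 178 stayed within 1.5 times the count or within the replicate spread, 20 moved and 0 reversed. With no detection filter, which tests more features, 6 genes were called at 6 h and 6 at 24 h. With only the arrays of the groups compared, 2 were called at 6 h. Leaving out 1 array at a time gave 0 to 31 called genes at 6 h, 0 to 32 at 24 h, 0 to 18 between 24 h and 6 h, 0 in the Th9 comparison, 4 to 20 for the difference of effects, and 33 to 37 for Th9 against 0 h. The medians then ranged from -1.39 to -0.84 at 6 h, from -1.31 to -1.18 at 24 h, from -0.49 to 0.03 between them, from -0.01 to 0.09 in Th9 cells, from -1.29 to -1.12 for the difference and from -2.71 to -2.54 for Th9 against 0 h. The last median was -3.1 with each experiment normalised separately, where all features shifted by -0.48, and -2.24 with probes averaged. Over the other alternatives, single genes kept their call in 183 of 207 values at 24 h and 119 of 162 at 6 h, and 0 reversed. Same-numbered arrays did not deviate together in every pair, so the numbers were not taken to pair them (correlations 0.062, 0.14 and -0.19 in the time course and -0.061, -0.097 and 0.29 in Th9 cells). With the replicate number as a block, 14 genes were called at 6 h (13 of the 18), 19 at 24 h (19 of the 23), 0 between them, 0 in Th9 cells, 18 for the difference (17 of the 18) and 34 for Th9 against 0 h. The scaled table was not run. Genes near background, such as Oas3, Mx1 and Tor3a, have little room to fall.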

Other observations

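A further list of 39 interferon-stimulated genes, outside the 44, was measured for 30. Of these, 7 fell and 0 rose at 6 h, with a median log2 fold change of -0.3, and 6 fell and 0 rose at 24 h, with a median of -0.5, against 5.31% and 2.94% of all features called lower at these times. Gbp2, a guanylate-binding protein gene driven by interferon gamma as well as by type I interferon, fell 2.01-fold by 6 h and 3.42-fold by 24 h (log2 fold change -1.77 ± 0.12, adjusted p = 0.0042, limma). Gbp3 fell 2.45-fold by 24 h, Phf11d 2.51-fold by 6 h and 3-fold by 24 h, and Ifi47, an immunity-related GTPase gene, 2.31-fold by 6 h. Helz2 and the ubiquitin ligase gene Trim21 fell at both times, by 1.2 ± 0.21 and 0.95 ± 0.15 at 24 h on the log2 scale. Gbp2 lay 1.77 ± 0.42 higher on the log2 scale in Th9 cells after IL-7, which did not pass (adjusted p = 0.15, limma). In the Th9 comparison 26 of the 39 were tested and 0 called (limma, adjusted p under 0.05), with a median of 0.05. For the difference between the effects, 5 of 30 were lower in naive cells, led by Gbp2 at -3.64 ± 0.57, where 1.69% of features were. Slfn1 was higher, at 1.64 ± 0.39, where 2.06% of features were. Slfn1 was detected on too few Th9 arrays to be tested there, so its difference leans on values near background. Its change in naive cells at 24 h, 0.9 ± 0.23, was not called.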
